A study of Mus musculus with 25 samples.

Results

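The Dlx, Msx and Gsx homeobox genes were followed through the peak lists of H3K27me3, the trimethylation of lysine 27 of histone H3, in regenerating mouse muscle fibers. The group was fixed by name as Dlx1, Dlx2, Dlx3, Dlx4, Dlx5, Dlx6, Msx1, Msx2, Gsx1 and Gsx2, and its peaks are those to which the authors' annotation gave 1 of these 10 symbols. Of the 10 genes, 8 had a peak in at least 1 of the 12 H3K27me3 lists, and Dlx1 and Dlx6 had none. The 8 genes held 290 of the 34244 H3K27me3 peaks, and 6091 genes held at least 1 peak in all.

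The samples were tibialis anterior (TA) muscles of mice carrying a Pax7-Cre(ERT2) driver and a mito-Dendra2 reporter, the wild-type controls included. Tamoxifen was given at 75 mg/kg for 5 days, 50 µL of 1.2% BaCl2 was injected into the muscle 2 days later, and Dendra2+ fibers were taken by dissection 14 days after injury. The 4 genotypes were wild-type, mfn2-/- (lacking mitofusin 2, a protein of the outer mitochondrial membrane), vhl-/- (lacking VHL, which marks HIF1α for degradation) and HIF1dPA (expressing a HIF1α with proline-to-alanine changes that VHL does not recognize). Each genotype had 3 libraries of H3K27me3 and 3 of H3K9me3, another mark of silenced chromatin. The driver acts in muscle stem cells, so recombination reached the fibers through the stem cells that built them, and nuclei of other cells held in a dissected fiber kept their own chromatin. The labels do not say that the 3 libraries of a genotype came from separate animals. The paper's legends state 3 mice per group for its wild-type and mfn2-/- heatmaps of these marks. They state 3 biological replicates for each ChIP-seq data set. The p-values measure the spread between libraries. The ages of the mice are not given in the sources used here.

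H3K27me3 is laid down by the Polycomb repressive complex PRC2 and is held at silent developmental genes, often as broad domains that reach from a CpG-rich promoter over the neighboring sequence. The Dlx genes are relatives of fly Distal-less and stand in the genome as convergent pairs, Dlx1 with Dlx2, Dlx3 with Dlx4, and Dlx5 with Dlx6, which share regulatory sequence and are used in the forebrain, branchial arches, teeth and limbs. Msx1 and Msx2 encode homeobox repressors that act downstream of BMP signals in the limb bud and the skull, and Msx1 is known to hold back myogenic differentiation. Gsx1 and Gsx2 pattern the ventral forebrain and the spinal cord, where they act upstream of Dlx1 and Dlx2. 

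The promoters of the genes whose start regions lay under peaks are shown because the peaks at Dlx2, Msx1, Msx2 and Gsx1 differed in how far they reached over them. Each is the 250 bases before the start site on the gene's own strand, from RefSeq (GRCm38.p6), with CG dinucleotides in capitals. They lie at chr2:71546755-71547004 (minus strand) for Dlx2, chr5:37824586-37824835 (minus strand) for Msx1, chr13:53472781-53473030 (minus strand) for Msx2 and chr5:147188446-147188695 (plus strand) for Gsx1.
Dlx2: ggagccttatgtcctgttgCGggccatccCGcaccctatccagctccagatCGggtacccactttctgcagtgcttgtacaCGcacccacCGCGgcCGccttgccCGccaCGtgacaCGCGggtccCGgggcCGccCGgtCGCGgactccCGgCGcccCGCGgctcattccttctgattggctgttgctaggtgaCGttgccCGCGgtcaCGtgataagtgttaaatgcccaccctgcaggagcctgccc
Msx1: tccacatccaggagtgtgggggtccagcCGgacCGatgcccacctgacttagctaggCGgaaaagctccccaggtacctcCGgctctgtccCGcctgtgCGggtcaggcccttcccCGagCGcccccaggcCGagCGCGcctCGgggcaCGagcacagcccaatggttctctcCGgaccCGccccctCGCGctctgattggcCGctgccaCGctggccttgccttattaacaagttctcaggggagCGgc
Msx2: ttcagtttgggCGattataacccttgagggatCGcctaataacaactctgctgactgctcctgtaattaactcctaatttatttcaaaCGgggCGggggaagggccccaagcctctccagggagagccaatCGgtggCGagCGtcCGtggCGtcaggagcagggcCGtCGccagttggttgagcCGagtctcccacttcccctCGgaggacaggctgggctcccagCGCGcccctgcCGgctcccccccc
Gsx1: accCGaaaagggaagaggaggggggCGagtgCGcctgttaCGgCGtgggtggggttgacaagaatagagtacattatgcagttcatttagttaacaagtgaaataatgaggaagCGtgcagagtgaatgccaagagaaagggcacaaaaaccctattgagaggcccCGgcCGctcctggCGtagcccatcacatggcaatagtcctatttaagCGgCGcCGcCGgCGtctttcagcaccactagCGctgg

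RefSeq promoter windows were at hand for 6 of the 10 genes, and Dlx3, Dlx4, Dlx5 and Dlx6 were not matched. Counted over a window of 300 bases that adds 50 bases past the start, CG dinucleotides numbered 29 at Dlx2 and Msx1, 27 at Dlx1, 22 at Msx2, 19 at Gsx1 and 17 at Gsx2. The median of all 27018 RefSeq promoters was 7, so all 6 windows were richer in CG than the usual promoter. Gsx2, the lowest, still stood above 68.1% of promoters. Peaks overlapped 1092 promoters (4.04%) in at least 1 list, and the median CG count of those was 16.

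Peaks reached the 6 promoter windows unevenly. The Msx2 window was overlapped in 8 of 12 lists, 3 of them wild-type, 3 mfn2-/- and 2 vhl-/-. The Dlx2 window was covered over its full 300 bases in 7 lists, namely all 3 wild-type, all 3 vhl-/- and 1 mfn2-/-. The Gsx1 window was also overlapped in 7 lists (3 wild-type, 2 mfn2-/- and 2 vhl-/-). The Msx1 window was overlapped in the 3 wild-type lists and in no other, by 135, 191 and 1 bp, and none of these peaks reached the start site. Dlx1 and Gsx2 windows were each overlapped in 1 list. No HIF1dPA list had a peak over any of the 6. These lists overlapped 16 to 24 of all promoters (0.0592 to 0.0888%), and the wild-type lists 0.903 to 1.21%.

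The windows were also searched on both strands for ACGTG and GCGTG, the core letters of the HIF binding motif, and for TAATTA, a homeodomain core. ACGTG occurred in the windows of Dlx2 (4 matches) and Gsx2 (3 matches), GCGTG in those of Dlx2, Msx1 and Gsx1, and TAATTA in that of Msx2. A CACGTG, as in the Dlx2 sequence above, counts once on each strand. Of all promoters of this length, 19.7% held ACGTG, 32.5% GCGTG and 5.31% TAATTA, and these matches describe letters only.

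The lists themselves differed in length. The 9 lists of wild-type, mfn2-/- and vhl-/- libraries held between 3358 and 4035 H3K27me3 peaks, and the 3 HIF1dPA lists held 482, 499 and 501. The lists give no read totals, so depth is unknown, and a shorter list, fewer marked nuclei and less mark per nucleus cannot be told apart. For that reason, values of HIF1dPA are set beside the share of all genes that moved the same way. Of 19 marker genes, the 8 of muscle fibers (such as Acta1 and Ckm) had no H3K27me3 peak in any list. Among markers of other cells, Pdgfra and Rbfox3 had a peak in 9 lists each, Pax7 in 5, Snap25 in 2 and Myf5 and Ptprc in 1 each. Col1a1, Dcn, Pecam1, Cdh5 and Cd68 had no H3K27me3 peak in any list, like the fiber genes. A peak list of a repressive mark does not show which cells were present.

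In wild-type, mfn2-/- and vhl-/- fibers, H3K27me3 was found at all 8 genes without exception. Each of the 9 lists had at least 1 peak at Dlx2, Dlx3, Dlx4, Dlx5, Msx1, Msx2, Gsx1 and Gsx2. Of the 2393 genes with a peak in at least 3 lists, 15.3% had one in all 9. In the HIF1dPA lists 1, 4 and 4 of the 8 genes had a peak, and Dlx5, Msx1 and Gsx1 had none. Gsx2 alone among the 8 had a peak in all 12 lists.

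Other homeobox families, which are also known Polycomb targets, were counted in the same way. Of 13 LIM homeobox genes with any peak, 12 or 13 had one in each wild-type, mfn2-/- and vhl-/- list, and 5 to 7 in the HIF1dPA lists. Of 21 Hox genes 14 to 18 had a peak in those 9 lists and 3 to 4 in the HIF1dPA lists, and of 15 Nkx genes 10 to 14 and 5 to 7. These are counts with no test, and the drop in HIF1dPA lists was seen in all 4 families.

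Peaks at the 8 genes were somewhat wider than all peaks, more often distal intergenic or in a 3′ UTR, and less often intronic. Their median width was 820 bp against 735 bp for all H3K27me3 peaks, and the widest, at Dlx2, was 3197 bp. Promoter peaks (within 3 kb of a start site in the authors' classes) made up 46.6% of them and 47.2% of all peaks. Distal intergenic peaks made up 45.5% against 32.0%, 3′ UTR peaks 6.90% against 2.13%, and intronic peaks 1.03% against 15.9%, and none was classed as exonic. A score of at least 100 was given to 27.6% of these peaks and to 16.7% of all peaks. The score grows as the p-value of peak calling falls (−log10 p, multiplied by 10).

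Peaks at these genes also came back at the same places more often than peaks in general. The 290 peaks were merged over the 12 lists together with peaks assigned to noncoding RNAs that overlie these genes. The 290 peaks fell in 58 of the merged regions. Of these, 25 (43.1%) were found in 1 list, against 73.4% of all 15965 merged regions. At the other end, 9 regions were found in at least 9 lists, among 377 such regions in all. Of the 58, 3 were present in all 9 lists outside HIF1dPA and absent from all 3 HIF1dPA lists, a pattern of 0.752% of all regions. Another 6 were present in those 9 and in at least 1 HIF1dPA list (1.11% of all). In 1 of the 6, chr11:95142131-95147287, the peaks of mfn2-/- replicates 2 and 3 were assigned to Dlx4os, a noncoding RNA beside Dlx4.

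The main measure was the length of sequence covered by a gene's peaks in each library. For every gene with a peak in at least 3 lists, the 4 genotypes were compared with an exact permutation test over libraries, adjusted by Benjamini-Hochberg over all 2393 genes. Of the 8 genes, 1 passed an adjusted p of 0.05, which was Msx1, and the share of all genes that passed was 1.84%. At an unadjusted p of 0.05, 7 of the 8 passed, all but Dlx5, against 33.2% of all genes. After adjustment, the exact test has little power for a change in 1 genotype alone. A limma moderated F test, added after the exact values had been seen, passed 6 of the 8 at an adjusted p of 0.05, all but Dlx3 and Dlx5, and 28.4% of all genes. Where all 3 libraries of a genotype are at 0, as HIF1dPA is at Dlx5, Msx1 and Gsx1, limma takes its spread from the other groups.

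**Figure D1:**
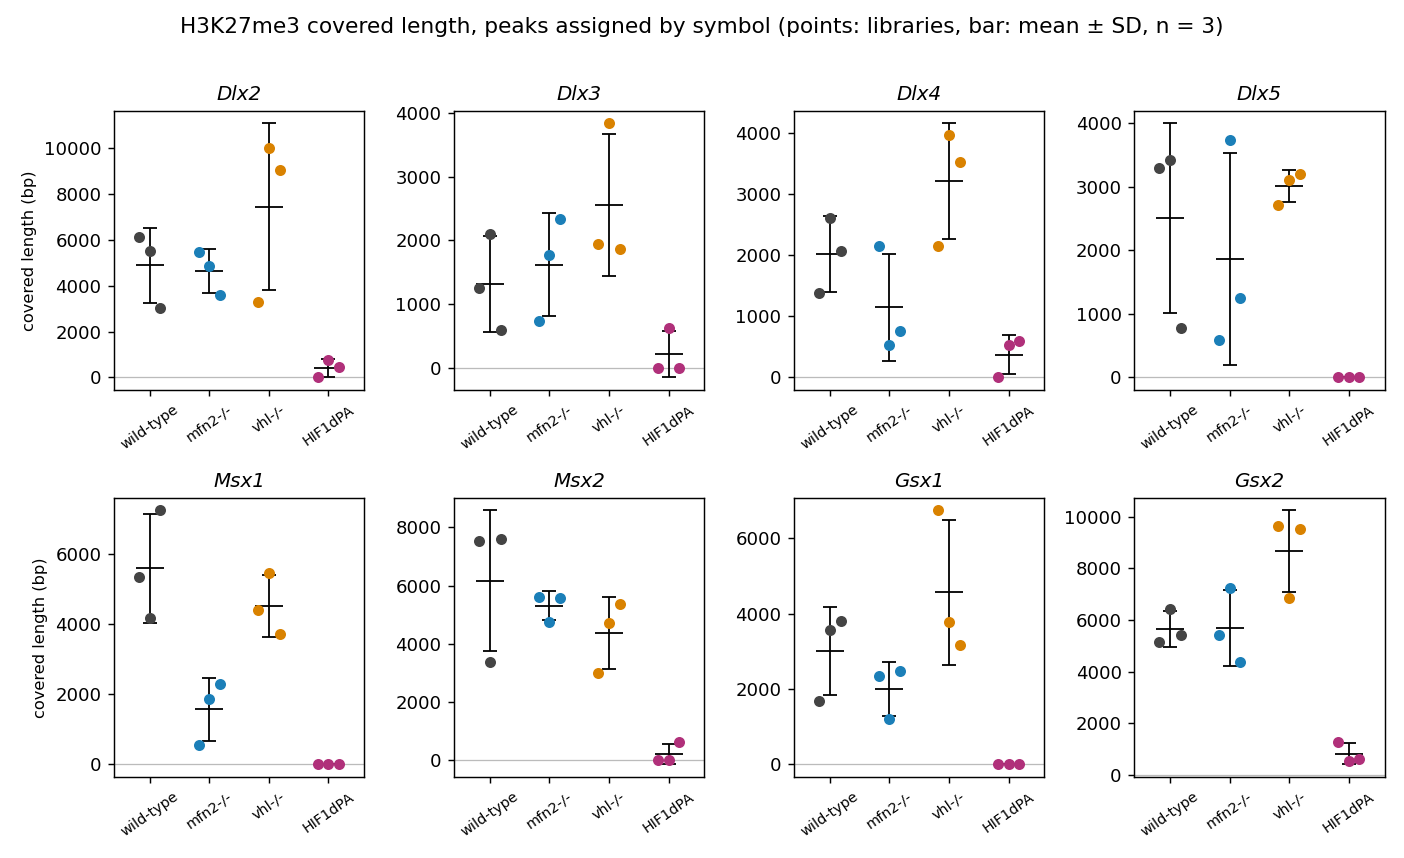
H3K27me3 covered length (bp, linear axes that differ between genes) of the 8 genes with assigned peaks, by genotype. Points are libraries, and horizontal lines with error bars are the mean and SD over 3 libraries. All 3 mfn2-/- points of Msx1 lie below its wild-type points, all 3 vhl-/- points of Gsx2 lie above, and the HIF1dPA points lie below the wild-type points at every gene but Dlx3.

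H3K27me3 at Msx1 was lower in mfn2-/- fibers than in wild-type fibers and was not found in HIF1dPA fibers. Covered length was 5347, 4156 and 7237 bp in the wild-type libraries. It was 554, 1849 and 2284 bp in the mfn2-/- libraries and 4396, 5439 and 3699 bp in the vhl-/- libraries. The 3 HIF1dPA libraries had no Msx1 peak. Thus every mfn2-/- library lay below every wild-type and every vhl-/- library, while wild-type and vhl-/- overlapped. The means were 5580 ± 1554 bp in the wild-type libraries, 1562 ± 899.9 bp in the mfn2-/- libraries and 4511 ± 875.7 bp in the vhl-/- libraries (SD, n = 3 each).

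The difference across the 4 genotypes had an exact permutation p of 0.000909 and an adjusted p of 0.0494. Without the HIF1dPA libraries the adjusted p was 0.219, and no gene of the whole table passed, although 403 genes, Msx1 among the 8, had an unadjusted p under 0.05. The call was also lost, at adjusted p-values of 0.0504 to 0.111, without mfn2-/- replicate 1 or 2, vhl-/- replicate 1 or 2, or any HIF1dPA library. It was 0.391 with an equal number of peaks in each list, 0.125 with scores of at least 100, 0.108 with promoter peaks, 0.0851 on within-list percentiles and 0.0622 by position. Against wild-type alone, the mfn2-/- difference was -4018 bp, with a limma 95% interval of -5910 to -2125 bp and an adjusted p of 0.00732. Msx1 was the only one of the 8 that limma called lower in mfn2-/-, where 2.42% of all genes were called lower. An exact test of 3 against 3 libraries cannot go below 0.1. All 3 mfn2-/- libraries lay below all 3 wild-type libraries at Msx1 among the 8, and at 10.1% of all genes.

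The Msx1 peaks lay almost wholly outside the gene. Msx1 stands on the minus strand at chr5:37820491-37824585, and of its 36 peaks none covered the start site, 31 lay upstream and 1 touched the gene body, in a wild-type library. A merged region directly upstream, chr5:37824645-37829714, carried a peak in all 9 lists outside HIF1dPA. Within the gene and 3 kb on either side (chr5:37817491-37827585), peaks covered 21.6 ± 6.90% of the sequence in wild-type, 4.10 ± 3.62% in mfn2-/- fibers and 23.4 ± 5.62% in vhl-/- fibers (SD, n = 3), and none in HIF1dPA. Wild-type and mfn2-/- did not overlap there either.

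More distant Msx1 peaks stood in groups up to 95.6 kb from the start site. Of the 36 peaks, 10 lay beyond 10 kb. A region at chr5:37892644-37894158 was found in 4 lists, 2 wild-type, 1 mfn2-/- and 1 vhl-/-. Another at chr5:37919542-37920614 was found in 2 vhl-/- lists. These distant peaks were assigned to Msx1 as the nearest gene by the authors' annotation, which is not evidence that they act on it.

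**Figure D2:**
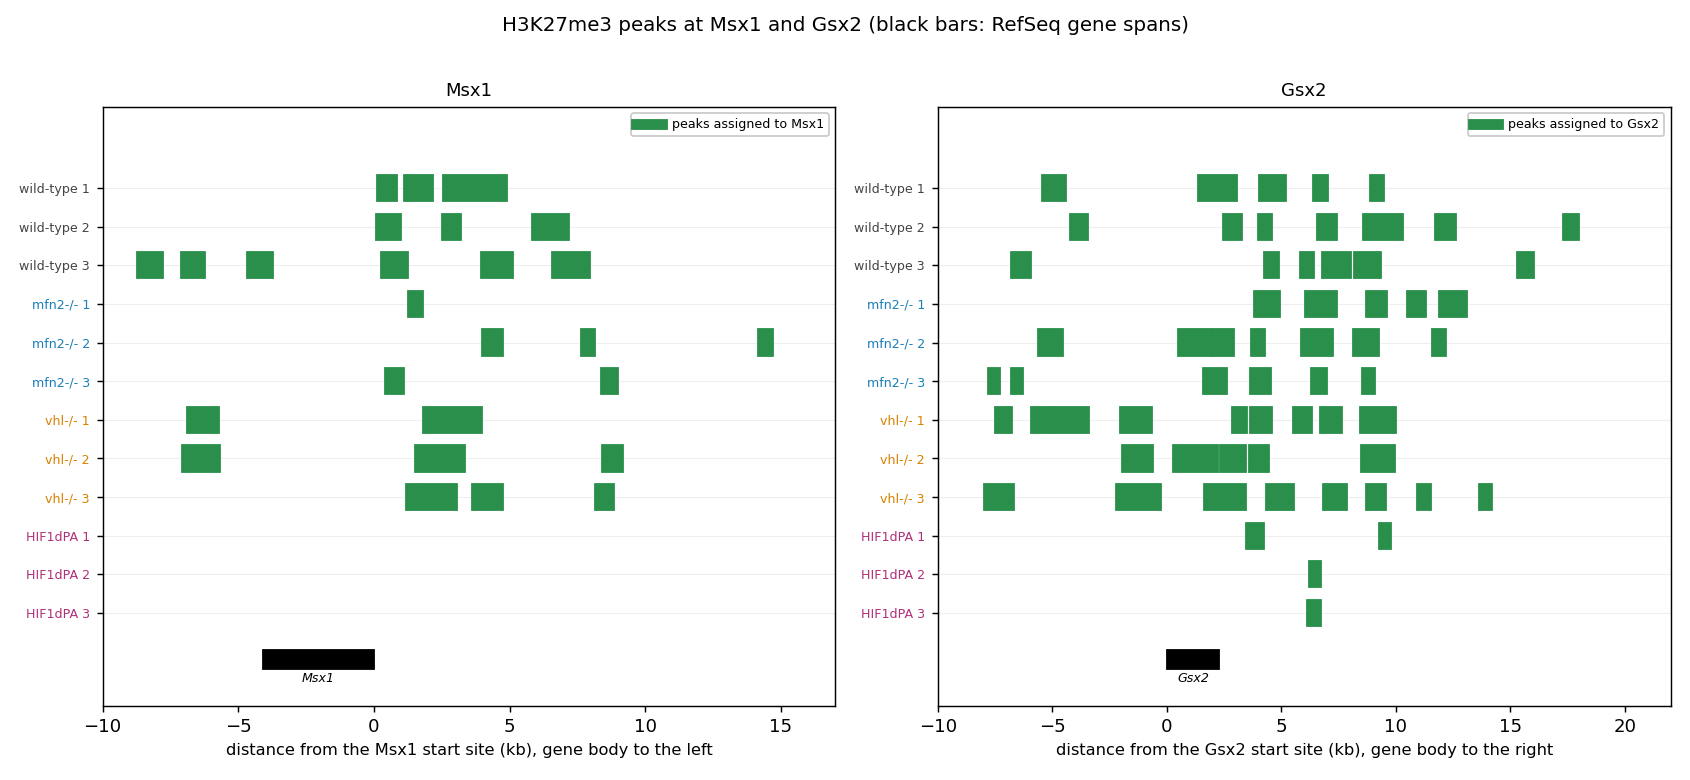
Maps of H3K27me3 peaks at Msx1 and Gsx2 in the 12 libraries. The horizontal axis is the distance from the start site in kb along the chromosome, each row is 1 library, green bars are peaks assigned to the gene, and black bars are gene spans (Msx1 reads to the left, so its upstream side is on the right). At Msx1 the bars sit mostly upstream with 5, 5 and 7 Msx1 peaks in all in the wild-type libraries, 1, 3 and 3 in the mfn2-/- libraries and 3, 5 and 4 in the vhl-/- libraries, and at Gsx2 they sit mostly downstream, with a block just before the start site in the 3 vhl-/- rows alone.

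Msx2, which shares with Msx1 the role of BMP target, kept its covered length in mfn2-/- libraries within the wild-type spread. It was 7527, 3371 and 7605 bp in the wild-type libraries, 5616, 4732 and 5588 bp in the mfn2-/- libraries, 2980, 4726 and 5366 bp in the vhl-/- libraries, and 0, 0 and 611 bp in the HIF1dPA libraries. The 3 genotypes outside HIF1dPA overlapped, and all HIF1dPA libraries lay below them. The mfn2-/- difference from wild-type was -855.7 bp, with a limma 95% interval of -3349 to 1638 bp. The HIF1dPA difference was -5964 bp (interval -8458 to -3470 bp, limma adjusted p = 0.00593). Across genotypes the exact permutation p was 0.00649 and its adjusted value 0.0734.

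Msx2 lies at chr13:53466881-53472780, and its 53 peaks, more than those of any other member but Gsx2, spread over both sides of the start site. Of them 6 covered the start site, 18 lay upstream and 29 downstream. Peaks covered 32.2 ± 17.2% of the gene with 3 kb on each side in wild-type, 37.8 ± 6.21% in mfn2-/- fibers and 24.5 ± 4.55% in vhl-/- fibers (SD, n = 3), and none in HIF1dPA. The single HIF1dPA peak of Msx2 therefore lay outside this stretch.

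At Gsx2 the covered length was greatest in vhl-/- fibers. It was 5133, 6439 and 5411 bp in the wild-type libraries, 5435, 7257 and 4361 bp in the mfn2-/- libraries, 9637, 6859 and 9537 bp in the vhl-/- libraries, and 1294, 542 and 630 bp in the HIF1dPA libraries. Every vhl-/- library lay above every wild-type library, which was the case at no other member and at 6.23% of all genes. The mean was 8678 ± 1576 bp in the vhl-/- libraries against 5661 ± 688.0 bp in the wild-type libraries and 5684 ± 1464 bp in the mfn2-/- libraries (SD, n = 3).

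The vhl-/- difference at Gsx2 was 3017 bp with a limma 95% interval of 507.0 to 5526 bp, but its adjusted p over all genes was 0.273, so it did not pass. Limma called none of the 8 genes in vhl-/- in either direction, where 0.836% of all genes were called higher and 0.376% lower. The HIF1dPA difference at Gsx2 was -4839 bp (interval -7349 to -2329 bp, limma adjusted p = 0.0167). Within the gene and 3 kb on each side it was -1400 bp (limma interval -3048 to 248.5 bp, adjusted p = 0.220), and HIF1dPA replicate 1 (767 bp) lay above wild-type replicate 3 (673 bp). Across genotypes, the exact permutation p was 0.00143 and its adjusted value 0.0543, which misses the threshold.

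Gsx2 peaks lay mostly downstream of the start site. Gsx2 is on the plus strand at chr5:75075601-75077893, and of its 62 peaks none covered the start site, 13 lay upstream and 49 downstream, up to 17.3 kb away. A region just upstream, chr5:75073397-75075361, carried a peak in all 3 vhl-/- lists and in none of the other 9, a pattern shown by 0.150% of all regions and by no other region of these genes. The region downstream of the start site, chr5:75075892-75083660, carried a peak in all 12 lists. In the gene and 3 kb on each side, peaks covered 53.0 ± 14.7% in vhl-/- fibers, 20.0 ± 13.5% in wild-type fibers, 24.7 ± 11.8% in mfn2-/- fibers and 3.08 ± 5.34% in HIF1dPA fibers (SD, n = 3).

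Gsx1, the relative of Gsx2 in the spinal cord and forebrain, had no peak in HIF1dPA lists. Its covered length was 1667, 3551 and 3806 bp in the wild-type libraries, 2340, 1189 and 2477 bp in the mfn2-/- libraries, and 6741, 3774 and 3166 bp in the vhl-/- libraries. Both mutants overlapped wild-type, while every mfn2-/- library lay below every vhl-/- library, as also at Msx1 and at 14.4% of all genes. The HIF1dPA difference was -3008 bp (limma interval -4958 to -1058 bp, adjusted p = 0.0431). By position it was -1933 bp (adjusted p = 0.0710) and was not called. The exact permutation p across genotypes was 0.00344 with an adjusted value of 0.0648.

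Gsx1 lies at chr5:147188696-147190947 on the plus strand. Of its 31 peaks 5 covered the start site, 17 lay upstream and 9 downstream, and none lay beyond 10 kb. Gsx1 peaks thus stayed nearer to the start site than those of Msx1 and Gsx2, and more of them lay upstream than on or past it. In wild-type replicates 1 and 2 no peak reached the gene body, and in replicate 3 peaks covered 411 bp of it.

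At Dlx2, one of the pair with the widest domain, covered length overlapped between wild-type and both knockouts. It was 6133, 5503 and 3035 bp in the wild-type libraries, 5454, 4872 and 3599 bp in the mfn2-/- libraries, 3291, 10000 and 9064 bp in the vhl-/- libraries, and 0, 761 and 470 bp in the HIF1dPA libraries. The vhl-/- libraries spread from near the lowest wild-type value to the highest value of any member. The exact permutation p across genotypes was 0.0186 (adjusted 0.0744), and the HIF1dPA difference of -4480 bp had a limma interval of -7710 to -1250 bp and an adjusted p of 0.0653. Of its 46 peaks 7 covered the start site, and the farthest lay 83.1 kb upstream.

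Dlx1, the neighbor of Dlx2, had no peak by symbol in any list, yet its locus was marked. All 21 peaks inside the Dlx1 gene, found in 10 lists, had been assigned to Dlx1as, a long noncoding RNA transcribed from the opposite strand and overlapping Dlx1. Dlx1as held 57 peaks in 11 lists, which covered 6748, 6409 and 7516 bp in the wild-type libraries, 6932, 6512 and 7848 bp in the mfn2-/- libraries, 8828, 5827 and 6904 bp in the vhl-/- libraries, and 677, 0 and 679 bp in the HIF1dPA libraries. The 3 genotypes outside HIF1dPA overlapped.

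Taken by position, within the gene and 3 kb on each side whatever the symbol, Dlx1 was covered over 4912, 3961 and 5384 bp in the wild-type libraries. The values were 3958, 5383 and 5304 bp in the mfn2-/- libraries, 6417, 5073 and 6068 bp in the vhl-/- libraries, and 677, 0 and 679 bp in the HIF1dPA libraries. Dlx1 was therefore covered in 11 of 12 lists, and limma called it lower in HIF1dPA (adjusted p = 0.00477). ChIP-seq reads carry no strand of transcription, so peaks at Dlx1 and Dlx1as cannot be told apart.

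The stretch from 3 kb before Dlx1 to 3 kb past Dlx2, chr2:71525113-71549754, was the most heavily covered of the 7 loci in wild-type. Peaks covered 46.5 ± 3.53% of it in wild-type, 41.3 ± 2.62% in mfn2-/- fibers, 50.8 ± 2.01% in vhl-/- fibers and 3.5 ± 1.0% in HIF1dPA fibers (SD, n = 3). In the sequence between the genes, chr2:71533982-71543407, the values were 54.2 ± 8.61%, 42.7 ± 4.49%, 52.0 ± 8.45% and 2.40 ± 4.16%. There all 3 mfn2-/- libraries lay below all 3 wild-type libraries, a 3-against-3 split for which the exact test gives p = 0.1. The gap was small, from 4364 bp in the highest mfn2-/- library to 4480 bp in the lowest wild-type library. Over the whole locus the 2 genotypes overlapped. The share of like stretches elsewhere was not computed, and 10.8% of genes by position showed such a split.

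The same displacement of symbols held at Dlx6. Dlx6 had no peak by symbol, and the 14 peaks inside the gene, in 9 lists, had been assigned to 2 noncoding RNAs of the locus, 7 to Dlx6os1 and 7 to Dlx6os2. Dlx6os1, also known as Evf2, spans chr6:6820543-6871627, which takes in Dlx6 and part of the sequence between Dlx6 and Dlx5. It was covered over 7959, 5831 and 8776 bp in the wild-type libraries, 4972, 6897 and 7366 bp in the mfn2-/- libraries, 10369, 7911 and 8101 bp in the vhl-/- libraries, and 1243, 0 and 781 bp in the HIF1dPA libraries.

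By position, Dlx6 itself was covered over 6969, 4148 and 4754 bp in the wild-type libraries, 2787, 3424 and 5760 bp in the mfn2-/- libraries, 5224, 5509 and 5376 bp in the vhl-/- libraries, and in no HIF1dPA library. The 3 vhl-/- values stood close together, and both knockouts overlapped wild-type. Limma called Dlx6 lower in HIF1dPA by position (adjusted p = 0.00295).

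At Dlx5, used with Dlx6 in bone and limb, covered length overlapped between wild-type, mfn2-/- and vhl-/-, and all HIF1dPA libraries lay below them. It was 3306, 3431 and 782 bp in the wild-type libraries, 596, 3747 and 1251 bp in the mfn2-/- libraries, 2722, 3113 and 3206 bp in the vhl-/- libraries, and 0 in all 3 HIF1dPA libraries. The low wild-type library lay below all vhl-/- libraries and the other two above them. The exact permutation p across genotypes was 0.0545 (adjusted 0.157), and limma called no difference.

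Over the Dlx6 to Dlx5 locus, chr6:6860334-6885068, peaks covered 30.9 ± 8.71% in wild-type fibers, 23.7 ± 8.66% in mfn2-/- fibers and 31.7 ± 2.64% in vhl-/- fibers (SD, n = 3), and none in HIF1dPA. The HIF1dPA peaks assigned to Dlx6os1 thus lay outside it.

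**Figure D3:**
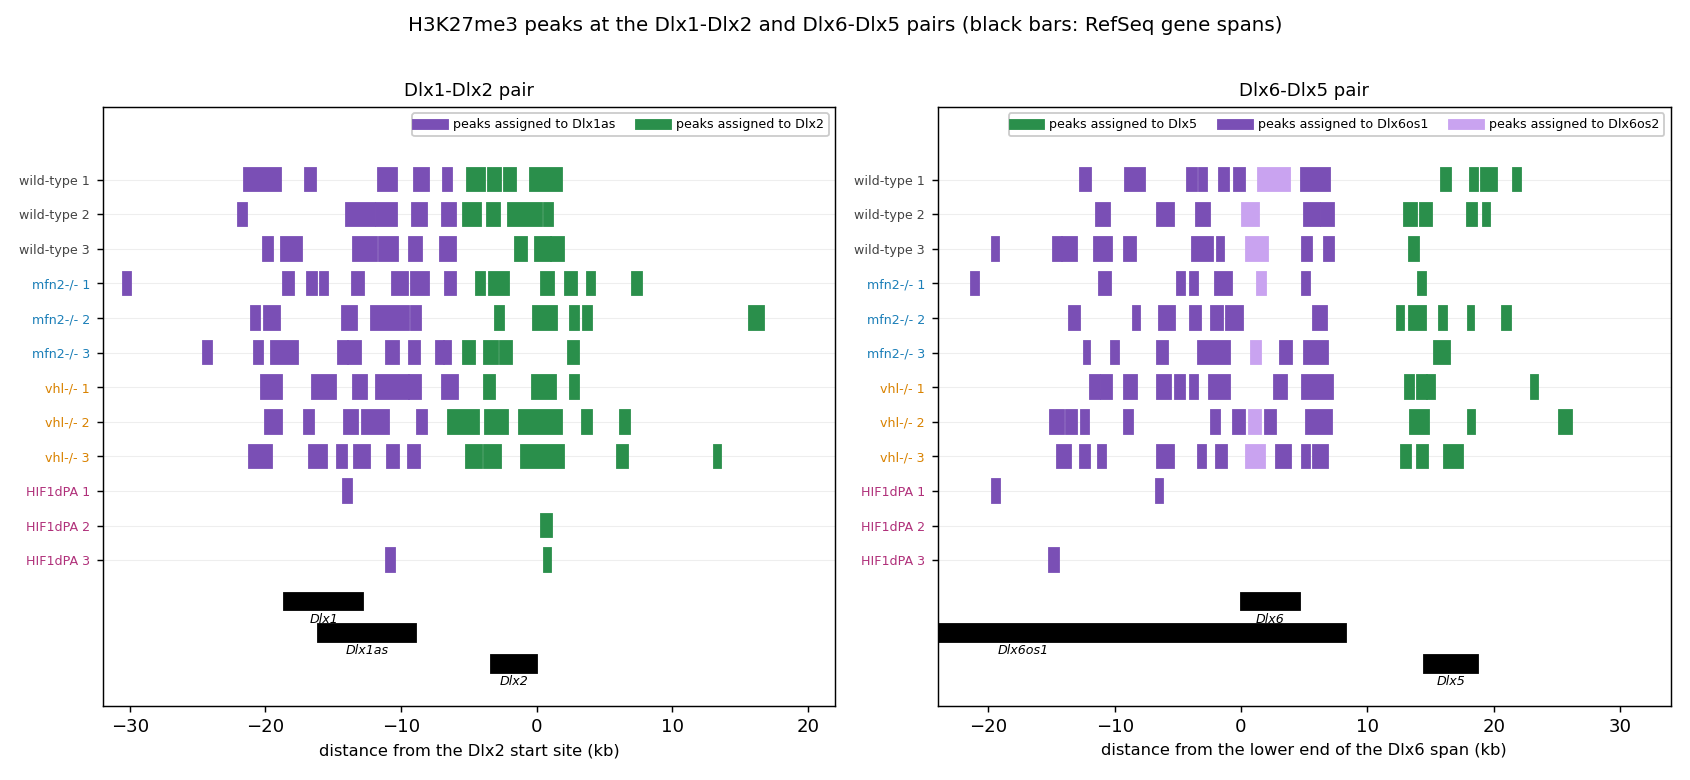
Maps of H3K27me3 peaks over the Dlx1 and Dlx2 pair (left) and the Dlx6 and Dlx5 pair (right) in the 12 libraries. The horizontal axis is the distance in kb from the Dlx2 start site or from the lower end of Dlx6, each row is 1 library, green bars are peaks assigned to Dlx2 or Dlx5, purple bars are peaks assigned to Dlx1as, Dlx6os1 or Dlx6os2, and black bars are gene spans. Over Dlx1 and Dlx6 every bar is purple, and the HIF1dPA rows hold few bars or none.

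The third pair, Dlx3 and Dlx4, was the least covered. Dlx3, which acts in skin, hair and teeth, was covered over 1254, 2100 and 587 bp in the wild-type libraries, 740, 1776 and 2340 bp in the mfn2-/- libraries, 1948, 3837 and 1865 bp in the vhl-/- libraries, and 0, 626 and 0 bp in the HIF1dPA libraries. All 3 mutants overlapped wild-type, which made Dlx3 the exception among the 8 in HIF1dPA. The exact permutation p across genotypes was 0.0340 (adjusted 0.117), and the limma interval of the HIF1dPA difference, -2494 to 284.1 bp, included 0.

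Dlx4 was covered over 1383, 2609 and 2063 bp in the wild-type libraries, 2148, 536 and 763 bp in the mfn2-/- libraries, 2144, 3956 and 3522 bp in the vhl-/- libraries, and 0, 531 and 590 bp in the HIF1dPA libraries. Both knockouts overlapped wild-type, and HIF1dPA lay below it. The exact permutation p across genotypes was 0.0115 (adjusted 0.0734). Of the 23 peaks inside the Dlx4 gene, 17 had been assigned to Dlx4 and 6 to Dlx4os, a noncoding RNA that starts beside it. The Dlx4os peaks included a promoter peak of 1977 bp in mfn2-/- replicate 2 and one of 2334 bp in mfn2-/- replicate 3. By position, Dlx4 was covered over 3137, 5263 and 3333 bp in the wild-type libraries, 2148, 3117 and 3628 bp in the mfn2-/- libraries, 3122, 3956 and 4672 bp in the vhl-/- libraries, and 0, 531 and 590 bp in the HIF1dPA libraries. Wild-type and mfn2-/- overlapped by this measure too.

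Over the Dlx3 to Dlx4 locus, chr11:95117117-95149294, peaks covered 16.2 ± 5.80% in wild-type fibers, 14.2 ± 4.86% in mfn2-/- fibers, 20.1 ± 4.24% in vhl-/- fibers and 1.81 ± 1.80% in HIF1dPA fibers (SD, n = 3). Between the genes, the values were 2.06% in wild-type fibers, 1.88% in mfn2-/- fibers, 2.90% in vhl-/- fibers and 0% in HIF1dPA fibers. The mark lay at the genes of this pair, where at Dlx1 and Dlx2 it also filled the sequence between them.

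Counted by position, all 10 genes were covered in wild-type and vhl-/- lists. No gene of the 10 passed the exact permutation test after adjustment over 1767 protein-coding genes, where 3.11% passed, and 9 of the 10 passed at an unadjusted p of 0.05, against 33.4% of all. Limma passed 8 of the 10 across genotypes, all but Dlx3 and Dlx5, against 27.8% of all. Msx1 remained the gene whose mfn2-/- libraries all lay below wild-type (10.8% of all genes by position) and that limma called lower in mfn2-/- (adjusted p = 0.0415, against 2.26% of all). Gsx2 remained the gene whose vhl-/- libraries all lay above wild-type (7.53% of all).

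**Figure D4:**
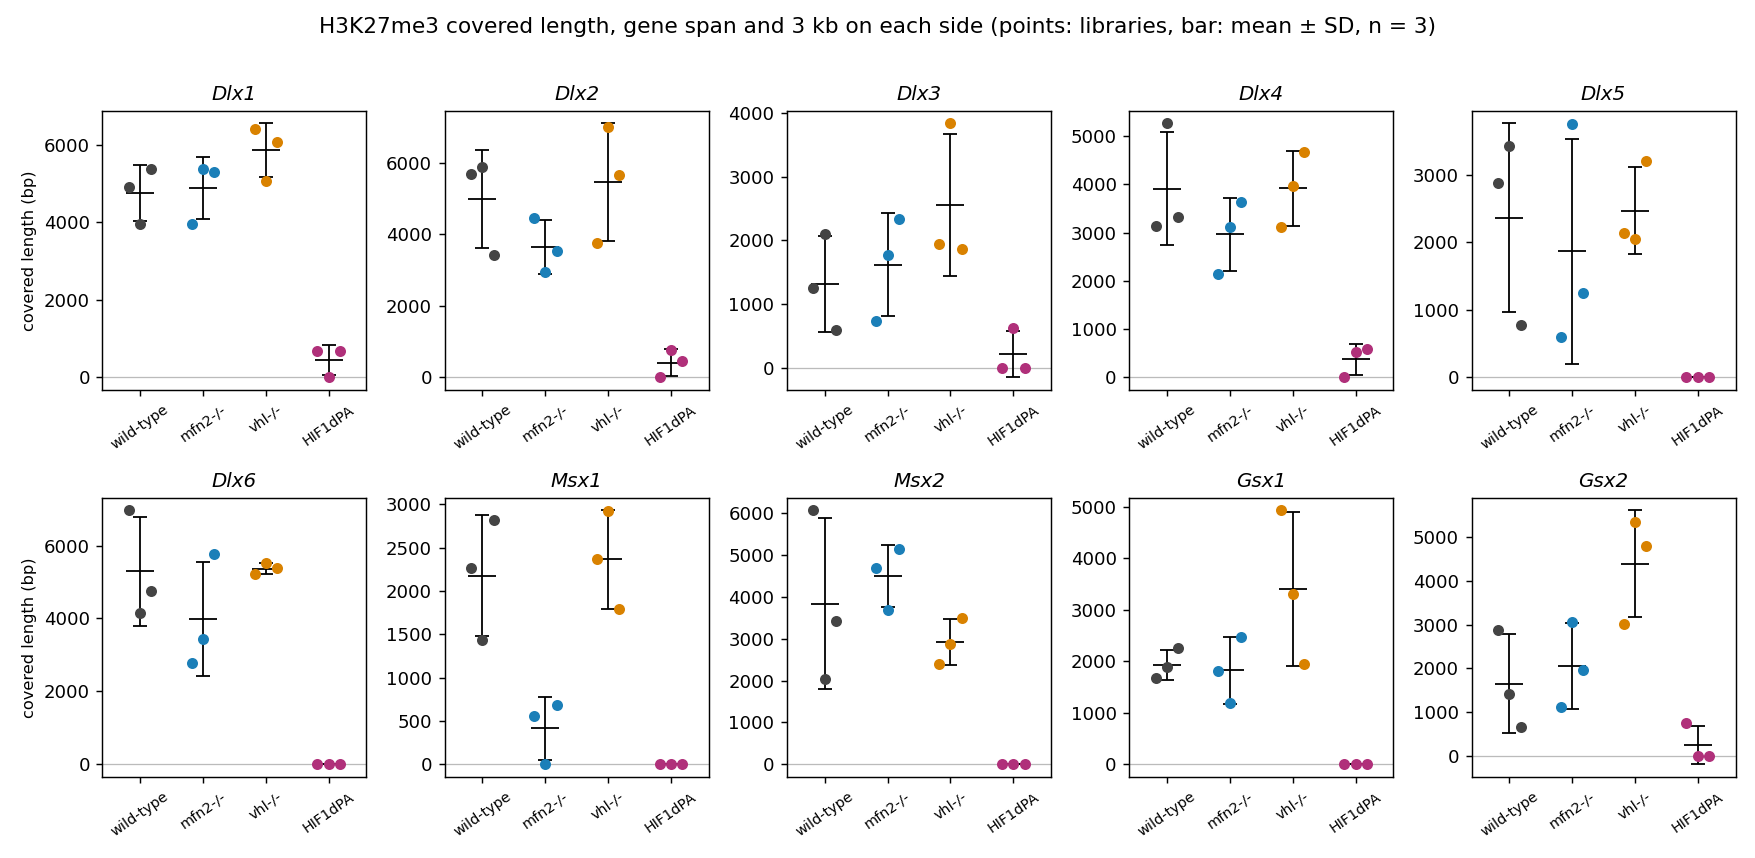
H3K27me3 covered length (bp, linear axes that differ between genes) within each of the 10 genes and 3 kb on each side, whatever symbol a peak had been given. Points are libraries, and horizontal lines with error bars are the mean and SD over 3 libraries of a genotype. Dlx1 and Dlx6, which had no peak by symbol, are covered over several kb in the other 3 genotypes, and HIF1dPA values lie between 0 and 767 bp.

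In HIF1dPA fibers the covered length was smaller at most of these genes, as it was at most genes of the lists. All 3 HIF1dPA libraries lay below all 3 wild-type libraries at 7 of the 8 genes, all but Dlx3, and at 29.0% of all genes tested. Limma called 4 of the 8 lower, Msx1, Msx2, Gsx1 and Gsx2, against 13.1% of all genes. By position, 8 of the 10 did not overlap (30.6% of all) and limma called 6 lower, Dlx1, Dlx2, Dlx4, Dlx6, Msx1 and Msx2 (14.2% of all). The median difference from wild-type was -3744 bp over the 8 genes and -527 bp over all 2393, of which 82.95% were lower. A loss in bp cannot exceed the covered length in wild-type, so these medians do not compare proportions. The 8 genes held 0.768, 0.958 and 1.05% of the peaks in the wild-type lists. In the HIF1dPA lists they held 0.415, 0.802 and 0.798%, and the ranges overlapped.

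In the other genotypes the medians were smaller. The median mfn2-/- difference was -748.7 bp over the 8 genes and -237.7 bp over all, with 6 of the 8 and 66.3% of all lower. The median vhl-/- difference was 1213 bp over the 8 and 63 bp over all, with 6 of the 8 and 54.8% of all higher. By position, over the 10 genes, the medians were closer to those of all 1767 genes, at -304 bp against -244.3 bp in mfn2-/- and 327.5 bp against 120.3 bp in vhl-/-. The HIF1dPA median by position was -2950 bp against -602 bp over all. The 3 comparisons share the wild-type libraries.

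Because covered length grows with the length of a list, the place of each gene's strongest peak within its own list was also read, as the percentage of the list's peaks with a lower score. The median over the 8 genes was 91.6, 85.9 and 83.7 in wild-type lists, 89.1, 83.6 and 88.4 in mfn2-/- lists, and 95.0, 94.9 and 96.0 in vhl-/- lists. The vhl-/- medians lay above all 6 others at full list length, and how often other genes did so was not computed. With 482 peaks in each list, the medians over the genes still with a peak were 68.05, 43.67 and 32.99 in wild-type lists, 64.11, 61.10 and 18.88 in mfn2-/- lists and 61.62, 59.96 and 69.92 in vhl-/- lists, and they overlapped. In the HIF1dPA lists the medians, over the 1, 4 and 4 genes with a peak, were 92.7, 39.1 and 47.0.

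When each list was cut to its 482 strongest peaks, the length of the shortest list, 5, 4 and 3 of the 8 genes kept a peak in wild-type lists and 5, 4 and 5 in mfn2-/- lists. In vhl-/- lists 7, 7 and 7 kept one, and in HIF1dPA lists 1, 4 and 4. At this length each vhl-/- list held more of these genes than any other list. The share of all genes with a like pattern was not computed, so the vhl-/- counts have no background beside them. HIF1dPA lists 2 and 3 reached wild-type numbers at equal length. Msx1 kept a peak in wild-type lists 1 and 3 and in vhl-/- lists 1 and 2, and in no mfn2-/- or HIF1dPA list. Gsx2 kept 1 to 3 peaks in every list.

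**Figure D5:**
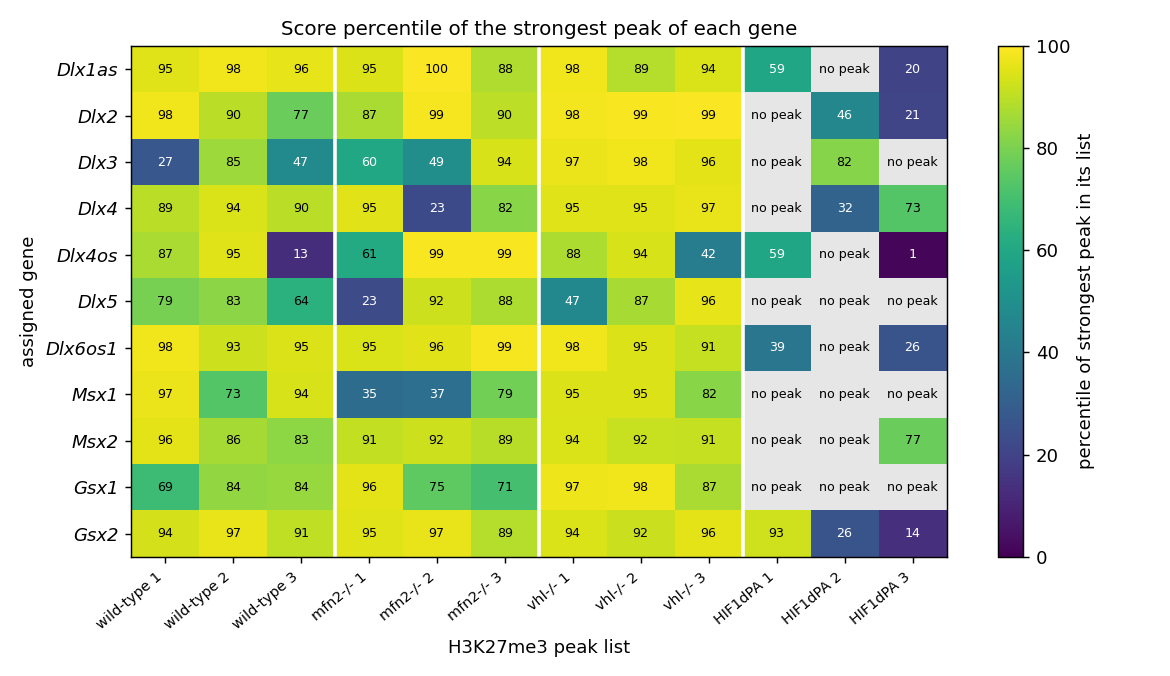
Within-list percentile (percent of the list's peaks with a lower score) of the strongest H3K27me3 peak of each of the 8 genes and of Dlx1as, Dlx4os and Dlx6os1. Rows are genes, columns are the 12 lists, the color scale runs from 0 to 100, the number in each cell is the percentile, and gray cells have no peak. Msx1 stands at 35, 37 and 79 in the mfn2-/- lists and at 95, 95 and 82 in the vhl-/- lists, and Dlx3 stands at 96 to 98 in the vhl-/- lists.

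H3K9me3 was nearly absent from these genes. Of 20998 H3K9me3 peaks in 12 lists, 2 were assigned to any of the 10 genes, both to Msx1 and both in mfn2-/- replicate 3. They lay at chr5:37883905-37884392, with a score of 58.2, and at chr5:37924402-37924873, with a score of 60.7, both far upstream of the gene. They stood at percentiles 49.7 and 58.9 of the 1498 scores in their own list.

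Among 23 genes that signal to these homeobox genes, act beside them or lie downstream, 22 had an H3K27me3 peak and 20 had one in at least 3 lists. None of the 20 passed the exact permutation test after adjustment (1.84% of all genes did). At an unadjusted p of 0.05, 13 passed, against 33.2% of all genes. Limma passed 13 of the 20 across genotypes, against 28.4% of all genes. It called 10 lower in HIF1dPA, against 13.1% of all genes, and none in vhl-/-. Among the 10 were Fgf8, Lhx8, Nkx2-1, Hand2, Barx1, Pax3, Pax9 and Gad2.

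Of the signals, Wnt7b was covered over 695, 505 and 965 bp in the mfn2-/- libraries and 593, 1180 and 898 bp in the vhl-/- libraries, with no peak in wild-type or HIF1dPA libraries. Limma did not call it in mfn2-/- (adjusted p = 0.154).

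Hand2, which patterns the limb and the branchial arches, was covered over 9820, 9293 and 8534 bp in the wild-type libraries, 4773, 8697 and 9545 bp in the mfn2-/- libraries and 9462, 11046 and 12430 bp in the vhl-/- libraries, with a mean of 822.3 bp in the HIF1dPA libraries (limma adjusted p = 0.00256 against wild-type). Pax3, a regulator of muscle progenitors, had a mean of 12466 bp in the wild-type libraries, 8891 bp in the mfn2-/- libraries, 9873 bp in the vhl-/- libraries and 390.7 bp in the HIF1dPA libraries (limma adjusted p = 0.00491 against wild-type). Both were covered over longer stretches than any of the 8 genes in wild-type. Myod1, which Msx1 is known to repress, had no peak, and Myf5 had a peak in 1 list.

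The genes whose covered length followed each member most closely over the 12 libraries were looked up among 1001 genes with a peak in at least 6 lists. For Msx1 they were Wee2 and Irx6 (Pearson r = 0.93 each), which had peaks in the 3 wild-type and 3 vhl-/- lists alone. For Gsx2 they were Sp8 and Platr30 (0.93 each), for Gsx1 Mecom (0.96) and Abr (0.95), and for Msx2 Ulbp1 (0.91) and Wt1os (0.88). For Dlx2 they were Pax2 (0.95) and Gm26688 (0.94), for Dlx3 Foxd4 (0.93) and Gm12446 (0.90), for Dlx4 Adamts18 and Epha3 (0.94 each), and for Dlx5 Tc2n (0.96) and Gm15045 (0.93). The points are 12 libraries in 4 genotypes, and all share the shorter HIF1dPA lists.

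Beyond the noncoding RNAs named above, few other genes within 50 kb had a peak. They were Plut in 4 lists, Gm5449 in 2 and Itga3 in 1.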

How the data were processed

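ChIP-seq peak lists of H3K27me3 and H3K9me3 were deposited by the authors, 1 per library, with 3 libraries per genotype and mark. The input library was not analysed here. The submitters' processing notes name BWA 0.7.5, MACS, deepTools 3.5.0 and the mm10 genome. The MACS version and the use of the input in peak calling are not given in the sources used here. The deposited score of each peak is 10 times the negative log10 of the MACS p-value, and the lists run from 50 to 3100. Peak starts, ends, gene symbols and feature classes were taken as the authors gave them, and positions in bp are in mm10. The lists hold no read totals, so depth is unknown.

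The 10 genes and the lists of other genes were chosen with earlier results of these data known. Peaks were summed per gene and library as covered bp (end minus start plus 1). Genes with a peak in at least 3 of 12 lists were compared with an exact permutation test of the between-group sum of squares (15400 distinct groupings, smallest p 6.49e-05), adjusted by Benjamini-Hochberg. The main test treated libraries as unpaired, and the labels do not say whether replicate numbers pair them. A limma 3.58.1 fit (R 4.3.3, mean-variance trend) on covered bp, and covered bp by position from RefSeq gene spans (GRCm38.p6, the same build as mm10) with 3 kb on each side, were added after the data had been seen. Named were all 10 genes, pathway genes with a peak in at least 3 lists (some are not reported here), the 2 genes most like each member (Pearson r, genes in at least 6 lists) and genes with peaks within 50 kb. The noncoding RNAs whose peaks overlie members were named after their values had been seen. Both tests were first run on simulated covered lengths with a normal spread. That simulation did not copy the many zeros of these lists. Python 3.11.15 was used otherwise. Alternatives covered score and feature filters, equal list length, list minimum, scale, a replicate block and each library left out.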

Additional observations from a re-analysis of the deposited data

Results flagged for a closer look

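At Gsx2 the differences from wild-type had opposite signs in vhl-/- and HIF1dPA. Covered length was 3017 bp higher in vhl-/- than in wild-type, with every vhl-/- library above every wild-type library, and -4839 bp relative to wild-type in HIF1dPA, with every HIF1dPA library below. The vhl-/- difference did not pass (limma adjusted p = 0.273, and 0.0957 by position), and by position the HIF1dPA difference was -1400 bp (limma interval -3048 to 248.5 bp, adjusted p = 0.220) with overlapping groups. The difference between these effects was not tested, and both use the same wild-type libraries.

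Signal outside the main measurement was assigned to Msx1, with 2 H3K9me3 peaks in mfn2-/- replicate 3 and none in the 3 wild-type libraries or in any other library. Both peaks lay far upstream of the gene, and only the authors' annotation ties them to Msx1. They stood at percentiles 49.7 and 58.9 of their own list.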

How the results depend on the processing

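The number of genes that passed the exact permutation test, 44 in all and 1 of the 8 members, moved with most settings. It was 1 gene and 0 members with the same number of peaks in each list, 19 and 0 with promoter peaks, 0 and 0 with a replicate block, 0 and 0 with genes in at least 1 list, 276 and 5 with genes in at least 6 lists, 131 and 3 on the log2(bp + 1) scale, and 0 and 0 on the percentile of the strongest peak. It was 0 and 0 without HIF1dPA, both at full and at equal list length, 0 members by position, and 679 and 6 with limma. Leaving out 1 library gave 0 to 104 genes and 0 to 2 members. No gene passed without mfn2-/- replicate 1 or without any single HIF1dPA library. Covered length gave no sign of pairing by replicate number (mean correlation of same-number libraries 0.004, of others -0.002). The exact permutation test with the replicate block cannot go below p = 0.00174.

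The adjusted p of Msx1 (0.0494) was 0.125 with scores of at least 100, 0.391 at equal list length, 0.108 with promoter peaks, 0.185 with the replicate block, 0.126 with genes in at least 1 list, 0.219 without HIF1dPA, 0.0851 on percentiles and 0.0622 by position. It was 0.0545 without mfn2-/- replicate 1, 0.0596 without mfn2-/- replicate 2, 0.0589 and 0.0504 without vhl-/- replicates 1 and 2, and 0.107 to 0.111 without a HIF1dPA library. The cause was not tested. Every mfn2-/- mean of Msx1 stayed below wild-type. HIF1dPA was no longer below wild-type at Dlx3 at equal list length (difference 208.7 bp, adjusted p = 0.162).

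Members with a peak per list (8 in wild-type, mfn2-/- and vhl-/-, 3 in HIF1dPA) averaged 4.67, 4.67, 7.67 and 0 with scores of at least 100, and 4, 4.67, 7 and 3 at equal list length. With antisense partners counted they averaged 10, 10, 10 and 4.67, with promoter peaks 7.33, 6.33, 7.67 and 1.67, and by position 10, 9.67, 10 and 2.67. Leaving out a library gave 2.5 to 4 in HIF1dPA and 8 to 8 elsewhere. The mean percentile of the strongest peak (87.0, 87.0, 95.3 and 59.6) was 48.2, 48.0 and 63.8 at equal list length in the first 3, and 83.1 in mfn2-/- on autosomes. Leaving out a library gave 84.8 to 88.7, 86.0 to 88.7, 95.0 to 95.5 and 43.0 to 69.9.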
